A study of Mus musculus with 2 samples.

Results

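The 233 genes described here are antisense long noncoding genes with reads in the chromatin RNA of mouse macrophages. They were chosen by the values of these libraries: each was annotated as antisense in all its transcripts and had at least 3 TPM, an abundance scaled by transcript length and library depth, and at least 20 expected counts in both libraries. They are 233 of 2948 genes that are antisense in all transcripts (7.90%), and the annotation matched 55536 genes in all. The single group was bone-marrow-derived macrophages, phagocytes grown in culture from the marrow of C57BL/6J mice, without a labelled genetic change; the labels give neither sex nor age. All cells had received 100 ng/ml lipid A for 12 h, a washout of 12 h and 100 ng/ml lipid A again for 75 min. Lipid A is the membrane anchor of bacterial lipopolysaccharide and activates Toll-like receptor 4. The chromatin fraction was taken, ribosomal RNA was removed, and total RNA was sequenced as biological replicates 1 and 2, made from 250 and 500 ng of RNA. The labels give both libraries the same donor entry and do not spell out separate cultures, so the spread between them may be technical. Neither untreated cells nor cells given lipid A a single time were analysed here, so the values are levels in this state and no effect of lipid A is measured.

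Antisense long noncoding genes are transcribed from the strand opposite another gene, often a protein-coding gene, and their RNA can pair with the RNA of that gene or act at the chromatin where it is made. The best-known mouse examples, Airn and Kcnq1ot1, are made from the paternal chromosome and silence imprinted neighbours in cis. Most of the others carry only a clone or model name, and the coding gene that they overlap is the main thing known about them. In macrophages, loci that answer Toll-like receptor 4 are read intensely, and the chromatin fraction holds RNA that is still being made, introns included.

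The libraries held 18445009 (replicate 1) and 17686824 (replicate 2) expected counts, and annotated genes took 18388793 and 17640464 of them. All 10 macrophage markers reached 1 TPM in both libraries, with summed levels of 1281 and 913 TPM. None of 24 markers of B cells, T and NK cells, neutrophils, erythroid cells, fibroblasts and mast cells reached 1 TPM in both libraries. The highest summed level of any of these lists was 1.72 TPM, for fibroblasts. No source used here states whether counting used strand, so at each overlap the reads of an antisense gene and of its partner cannot be separated. In bulk RNA, fewer cells that make a transcript and less RNA per cell cannot be told apart either.

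Of the 2948 antisense genes, 1417 had a count in at least 1 library and 1531 had none in either. By counting error alone, a count of 0 allows at most 3 counts per library, or 1.63e-05% of replicate 1 and 1.70e-05% of replicate 2. That limit does not cover how reads are assigned: 255 antisense genes with no count here had at least 20 in both libraries by the alignment-free program described below. The rule was met by 7.90% of antisense genes, 2.27% of long intergenic noncoding genes (133 of 5854), 9.87% of processed transcripts, 18.04% of sense-intronic genes and 30.5% of protein-coding genes. The count minimum kept out 26 antisense genes with 3 TPM or more in both libraries, and the TPM minimum kept out 171 with 20 counts or more in both. Just inside the TPM minimum lay Gm28085 (3.58 and 3.02 TPM), Gm16172 (3.04 and 4.54 TPM) and Gm45709 (3.15 and 4.23 TPM). Just outside it lay Gm42067 (3.42 and 2.98 TPM), Gm13964 (2.94 and 5.35 TPM) and Gm4279 (3.60 and 2.94 TPM).

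Where an antisense exon lies over a coding exon, its RNA holds a stretch complementary to the messenger RNA. Such a stretch under coding sequence, outside every annotated untranslated region, was present in 99 of the 233 genes. The longest unbroken stretch per gene had a median of 135 bases and a range of 6 to 866. The 6 below are shown because their partners are immune genes or, for Kdm6b, a gene known to be induced by lipopolysaccharide. Each line gives the antisense RNA in DNA letters from 5′ to 3′, taken from the GENCODE M21 transcripts (build GRCm38), with the bases complementary to coding sequence in capitals and up to 10 flanking bases in lower case, and the coordinates are those of the capitals.
Gm40578, against Tnfaip2 (chr12:111450658-111450682, minus strand): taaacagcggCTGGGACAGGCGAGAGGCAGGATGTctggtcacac
Gm28913, against Ikbke (chr1:131263330-131263349, plus strand): AACACTGAATCTTCTGGATActgtgggcag
Gm28914, against Ikbke (chr1:131260006-131260045, plus strand): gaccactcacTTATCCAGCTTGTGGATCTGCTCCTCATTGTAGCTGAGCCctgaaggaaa
Gm37787, against Slamf7 (chr1:171634941-171634996, plus strand): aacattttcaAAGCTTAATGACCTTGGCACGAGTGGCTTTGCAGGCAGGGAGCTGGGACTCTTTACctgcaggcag
Gm47009, against Irak3 (chr10:120170318-120170345, plus strand): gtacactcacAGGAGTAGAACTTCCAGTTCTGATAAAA
Kdm6bos, against Kdm6b (chr11:69401515-69401663, plus strand): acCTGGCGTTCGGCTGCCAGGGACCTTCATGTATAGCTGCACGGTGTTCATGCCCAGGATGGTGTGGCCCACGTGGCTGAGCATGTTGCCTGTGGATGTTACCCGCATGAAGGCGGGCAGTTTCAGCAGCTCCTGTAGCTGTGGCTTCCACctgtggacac
These longest stretches are 25, 20, 40, 56, 28 and 149 bases long in this order. They are not the whole overlap: exon bases shared with the partner, untranslated regions included, were 314, 65, 159, 423, 28 and 286. Bases in lower case may also lie opposite partner exons. The complementary bases of Gm28913 and Gm28914 lie at different places of Ikbke and do not overlap.

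Promoter windows of 300 bases, from 250 before to 50 after a start, were available from RefSeq (GRCm38.p6) for 74 of the 233 genes, and in 49 of these the RefSeq start lay within 50 bases of the start of an annotated transcript. In the 4 windows below the capitals mark matches, on either strand, to 3 motifs: the kappa B site bound by NF-kB (GGGANNNNCC), the interferon response element (GAAANNGAAA) and the TATA box (TATAAA). All 4 hold a match, so they do not represent the 49 windows, and they start genes named below. These are Gm16712 opposite the cytokine gene Ebi3, F630028O10Rik with no coding partner, Rab10os of the opposite-strand group, and imprinted Airn. The Gm16712 window lies beyond the end of Ebi3, inside another opposite coding gene, Yju2, near its start.
Gm16712 (chr17:55959352-55959651, minus strand): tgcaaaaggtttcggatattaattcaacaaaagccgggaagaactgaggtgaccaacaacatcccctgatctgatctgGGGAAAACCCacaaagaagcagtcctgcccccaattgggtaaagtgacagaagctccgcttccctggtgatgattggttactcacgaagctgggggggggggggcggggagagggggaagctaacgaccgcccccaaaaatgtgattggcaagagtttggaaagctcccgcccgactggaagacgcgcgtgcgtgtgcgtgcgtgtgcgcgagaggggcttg
F630028O10Rik (chrX:96239676-96239975, plus strand): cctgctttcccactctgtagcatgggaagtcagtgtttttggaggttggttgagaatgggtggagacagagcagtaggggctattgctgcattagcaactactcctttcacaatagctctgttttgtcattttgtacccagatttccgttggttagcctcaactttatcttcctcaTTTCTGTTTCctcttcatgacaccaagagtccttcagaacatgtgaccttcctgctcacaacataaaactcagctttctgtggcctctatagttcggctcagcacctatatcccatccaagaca
Rab10os (chr12:3235541-3235840, plus strand): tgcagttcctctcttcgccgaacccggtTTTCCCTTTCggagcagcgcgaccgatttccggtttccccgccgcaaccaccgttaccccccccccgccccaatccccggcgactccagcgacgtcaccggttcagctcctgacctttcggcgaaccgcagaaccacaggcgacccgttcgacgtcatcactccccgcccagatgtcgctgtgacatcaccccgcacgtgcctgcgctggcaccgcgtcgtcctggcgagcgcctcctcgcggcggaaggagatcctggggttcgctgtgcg
Airn (chr17:12741061-12741360, plus strand): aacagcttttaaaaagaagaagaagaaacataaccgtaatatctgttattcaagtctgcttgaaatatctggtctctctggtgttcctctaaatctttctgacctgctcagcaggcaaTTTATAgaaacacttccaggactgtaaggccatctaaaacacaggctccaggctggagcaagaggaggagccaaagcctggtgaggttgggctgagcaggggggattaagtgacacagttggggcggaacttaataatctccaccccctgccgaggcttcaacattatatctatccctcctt
Gm16712 holds a kappa B match, F630028O10Rik and Rab10os an interferon response element each, and Airn a TATA match on the opposite strand. Over the 49 windows, kappa B matches were present in 11 (22.4%), against 20.7% of all 32851 windows in the table. The interferon response element was present in 2 (4.08%, against 3.44% of all windows), TATAAA in 5 (10.2%, against 13.6%) the AP-1 motif TGANTCA in 1 (2.04%, against 7.81%), the PU.1 motif GAGGAAGT in 1 (2.04%, against 3.20%) and the cyclic AMP response element TGACGTCA in 0 (against 1.79%). A match is a string of letters and not a measured binding site.

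In the next windows the capitals mark CpG, the dinucleotide that is methylated in imprinting control regions and is dense in CpG islands. They are shown for the known RNAs Tug1 and Kcnq1ot1, and the window of Tug1 belongs to a transcript that starts inside the outermost annotated start.
Tug1 (chr11:3648765-3649064, minus strand): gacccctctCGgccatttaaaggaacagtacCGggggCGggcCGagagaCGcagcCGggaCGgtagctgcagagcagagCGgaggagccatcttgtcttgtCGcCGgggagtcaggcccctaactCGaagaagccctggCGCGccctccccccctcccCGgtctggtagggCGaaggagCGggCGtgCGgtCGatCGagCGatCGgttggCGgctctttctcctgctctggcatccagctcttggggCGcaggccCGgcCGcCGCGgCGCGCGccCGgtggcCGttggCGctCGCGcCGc
Kcnq1ot1 (chr7:143296498-143296797, minus strand): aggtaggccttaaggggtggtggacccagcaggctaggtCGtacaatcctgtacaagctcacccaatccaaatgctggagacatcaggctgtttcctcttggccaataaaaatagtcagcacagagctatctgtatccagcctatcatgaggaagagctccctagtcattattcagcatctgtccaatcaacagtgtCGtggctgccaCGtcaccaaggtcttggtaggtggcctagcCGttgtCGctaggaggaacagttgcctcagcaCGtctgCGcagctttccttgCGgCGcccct
Tug1 has 37 CpG in these 300 bases and Kcnq1ot1 has 9, while Rab10os above has 39, Gm16712 has 17 and Airn has 3. The median over the 49 windows was 7 CpG, the same as over all windows. Transcripts that start at the printed window held all of the TPM of Gm16712, F630028O10Rik and Kcnq1ot1, 33.2% and 30.6% of that of Rab10os and 22.3% and 27.0% of that of Tug1 in replicates 1 and 2. They held only 3.10% and 0.728% of that of Airn, so most of its TPM was given to transcripts with another start.

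The antisense genes as a group were a small part of the RNA. They held 80882 expected counts in replicate 1, or 0.440% of annotated counts (95% Wilson interval 0.437 to 0.443%), and 88794 in replicate 2, or 0.503% (0.5001 to 0.507%). Their summed level was 3268 TPM in replicate 1 and 4106 TPM in replicate 2, a mean of 3687 ± 593 TPM (SD, n = 2). Mean levels had a median of 8.76 TPM, quartiles of 5.39 and 15.04 TPM and a maximum of 207 TPM, and protein-coding genes that meet the same minimum had a median of 14.7 TPM. At least 10 TPM were reached by 100 of the 233, 30 TPM by 26 and 100 TPM by 5, and the 10 highest held 28.6% and 29.9% of the summed level in replicates 1 and 2. Kcnq1ot1, a single exon of 93092 bases, held 8.76% and 6.42% of the group's counts at only 4.44 and 3.97 TPM.

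By the alignment-based program the highest antisense gene was Gm40578 (chr12:111450405-111500840, minus strand), with 177 and 238 TPM in replicates 1 and 2 (207 ± 43.0, SD, n = 2). It meets tail to tail the end of Tnfaip2, a gene named for its induction by tumour necrosis factor, which had 1421 and 2385 TPM. Next came Gm28913 (chr1:131263330-131266749), which lies inside Ikbke, the gene of the kinase IKK-epsilon that acts in interferon induction. Gm28913 had 161 and 179.6 TPM, and a second gene inside Ikbke, Gm28914 (chr1:131259507-131260553), had 52.5 and 46.2 TPM, against 1499 and 1281 TPM for Ikbke itself. By mean TPM the ratios to the partner were 0.109 for Gm40578, 0.123 for Gm28913 and 0.0355 for Gm28914, and none of the 3 overlapped its partner in level. The order depends on the program. By the alignment-free program described below, Gm28913 had a mean of 403 TPM and Gm16094 of 242 TPM, both above Gm40578 at 191 TPM.

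Other members of the top group lay closer to their partners. 4933423P22Rik (chr2:90479236-90488425), inside an intron of the receptor phosphatase gene Ptprj, had 135 and 162 TPM, against 145 and 159 TPM for Ptprj. AC119228.1 (chr19:29373417-29384471), inside Cd274, the gene of the checkpoint ligand PD-L1, had 111 and 125 TPM, against 162 and 201 TPM for Cd274. Gm37787, inside the leukocyte receptor gene Slamf7, had 62.3 and 109 TPM, against 309 and 500.3 TPM. Of these 3 pairs, only 4933423P22Rik and Ptprj overlapped in level between the libraries.

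Gm16094 (chr1:85599286-85599839, plus strand), with 80.4 and 179.9 TPM (130.1 ± 70.4, SD, n = 2), overlaps no coding gene. It starts 469 bases from the start of Sp110, a nuclear body gene induced by interferon, which is read the other way and had 261 and 295 TPM. Gm12000, inside the lymphoid transcription factor gene Ikzf1, had 43.2 and 72.4 TPM, against 50.4 and 51.2 TPM for Ikzf1. Gm7480, inside Lrmda, had 58.7 and 56.2 TPM, against 90.4 and 92.3 TPM for Lrmda. Gm43221, a single exon inside Fam102b, had 51.6 and 58.3 TPM, against 38.8 and 56.1 TPM for Fam102b. Gm12000 and Gm43221 overlapped their partners in level.

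**Figure D1:**
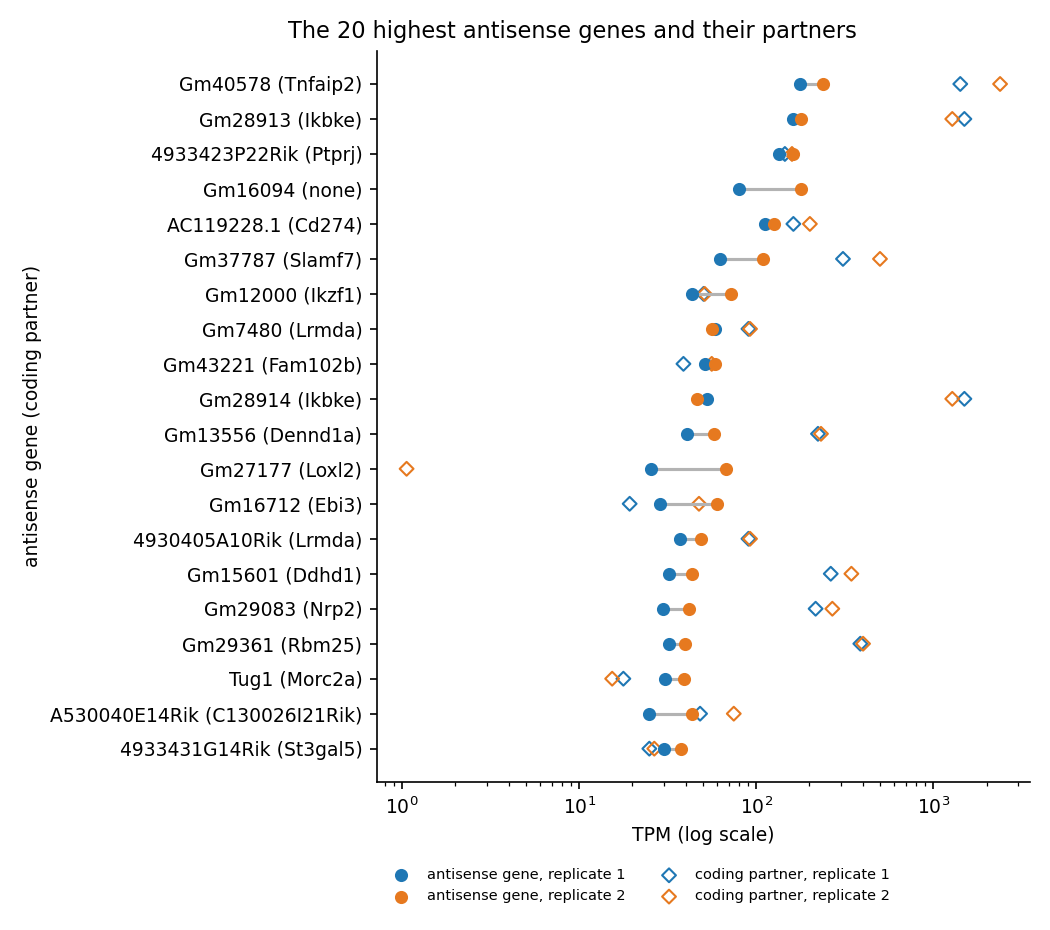
Level of the 20 antisense genes of highest mean TPM (filled circles) and of their coding partners (open diamonds) in replicate 1 (blue) and replicate 2 (orange), on a log scale of TPM; the partner is in brackets, and partner values listed at 0 are not drawn. Tnfaip2 and Ikbke lie above 1000 TPM and their antisense genes below 250, while 4933423P22Rik overlaps Ptprj at 135 to 162 TPM.

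A protein-coding gene on the opposite strand overlapped 226 of the 233 antisense genes, and these had 208 distinct partners. Members that share a partner are not independent of each other: 15 partners held 33 members, with 4 opposite Arhgap10 and 3 opposite Lrmda. The 7 without a coding overlap were Gm16094, Gm15445, F630028O10Rik, Gm11455, Gm15859, 4930430E12Rik and Gm26947, at mean levels of 3.73 to 130.1 TPM. In 149 pairs the antisense gene lay wholly inside its partner, in 39 the genes met tail to tail, in 32 head to head, and in 6 the antisense gene spanned the partner. Exon bases were shared in 136 pairs, with a median of 274.5 bases, and 90 pairs shared none.

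The partners were themselves well transcribed. Their median was 42.4 TPM, against 0.353 TPM for the partners of the 2494 other antisense genes that have one. At least 10 TPM were reached by 81.9% of the members' partners and by 19.7% of the other partners. The members were chosen by their reads, which at an overlap cannot be separated from those of the partner. The rule may thus favour genes with high partners, which was not tested. Across the 226 pairs the level of the antisense gene and of its partner had a Pearson r of 0.433 and a Spearman rho of 0.416 on log2(TPM + 0.1). These are descriptions over genes that share libraries, and in part partners. A highly read partner did not always come with antisense counts. Of 59 antisense genes inside a partner of at least 100 TPM, 33 were members, 12 were under 1 TPM in both libraries, and 6 had 0 counts in both. Of these 6, 3 lie inside Rasgef1b (324 and 380.3 TPM): 4930522N08Rik, Gm16226 and 4930405H06Rik. They also had 0 counts by an alignment-free program, which reads the same libraries without placing reads on the genome. Gm16311 inside Dab2 had 0 counts by that program too. However, Gm40304 inside Rbpj had 2 and 3 alignment-free counts, and 9130015G15Rik inside Nav2 had 38 and 28.

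**Figure D2:**
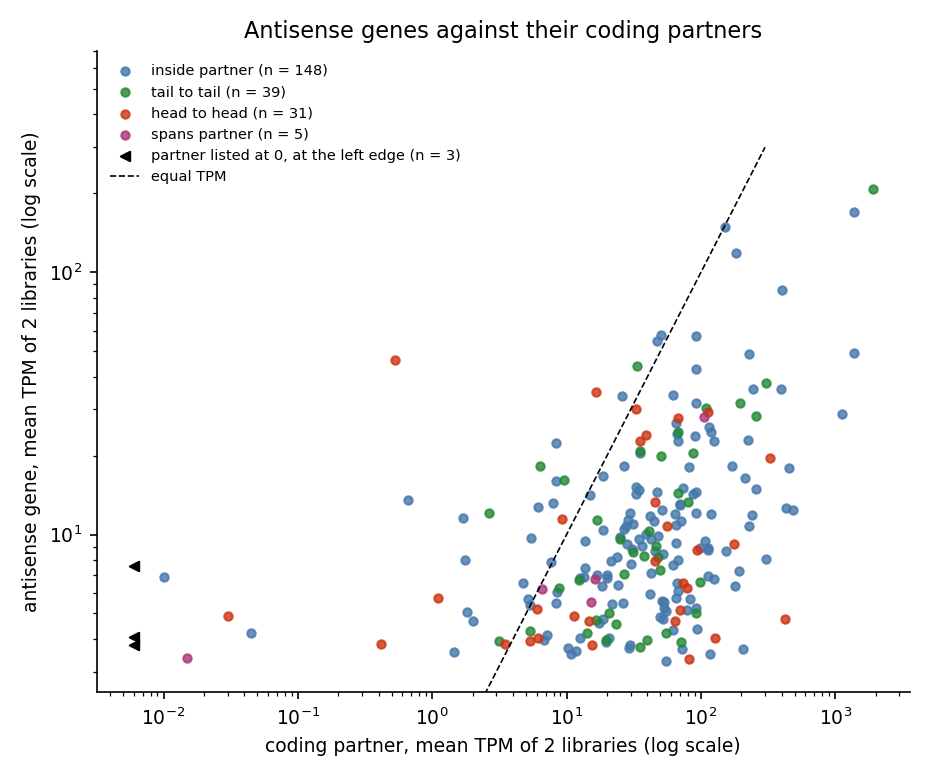
Mean TPM of the antisense gene (vertical, log scale) against mean TPM of its coding partner (horizontal, log scale) over 2 libraries for 226 pairs, coloured by how the genes overlap; the dashed line marks equal TPM and black triangles mark 3 pairs whose partner is listed at 0. Most points lie to the right of the line, and 36 pairs, triangles included, lie to its left.

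In most pairs the antisense gene was the lower of the pair. It lay below its partner in both libraries in 186 of 226 pairs, above it in both in 31, and by mean TPM it was above in 36 (15.9%). The median ratio of antisense to partner TPM was 0.257, with quartiles of 0.107 and 0.570, and 51 pairs were under 0.1. The share above the partner was 8 of 32 head to head, 21 of 149 inside, 5 of 39 tail to tail and 2 of 6 spanning pairs. It was 21 of 90 pairs with no shared exon bases and 15 of 136 pairs that share them.

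The lowest ratios were those of Gm37305, 4930579G18Rik, Gm15701, Gm2245 and 4930403D09Rik. Gm37305 starts head to head with the cyclin gene Ccnl1 and had 4.30 and 5.25 TPM, against 411 and 441 TPM for Ccnl1. Gm2245, which runs over 49963 bases inside the adaptor gene Fyb, had 28.7 and 28.8 TPM, against 1136 and 1126 TPM for Fyb. 4930403D09Rik had 6.05 and 10.1 TPM inside Dock2, the gene of a Rac activator of leukocytes, against 331 and 279 TPM. 4930579G18Rik had 3.45 and 3.90 TPM inside the splicing-associated gene Acin1, against 206 and 202 TPM, and Gm15701 had 10.6 and 14.3 TPM inside Rasa4, a Ras inhibitor gene, against 484 and 479 TPM. These 5 pairs were picked for the lowest ratios, so that their levels do not overlap follows from the choice.

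At the other end were antisense genes opposite coding genes at or near 0 by the alignment-based program. 1700019L13Rik had 3.65 and 10.1 TPM inside Cx3cr1, the fractalkine receptor gene, which was listed at 0 and 0.02 TPM. Gm26642 had 3.39 and 3.37 TPM over Elf3 (listed at 0, and 0.03 TPM), and Gm17056 had 5.0 and 4.74 TPM beside Lsmem1 (0.06 TPM, and listed at 0). Gm27177, the longest overlap of which is with Loxl2 (listed at 0, and 1.06 TPM), had 25.3 and 67.3 TPM. Partners listed at 0 in both libraries were Gm49354 for Etohd2 (7.44 and 7.77 TPM), Kremen2 for 9530082P21Rik (4.96 and 3.18 TPM) and Icam4 for Gm47079 (3.65 and 3.93 TPM). Some of these genes overlap a second coding gene with reads: Gm47079 overlaps Icam1, an adhesion gene at a mean of 246.7 TPM, Etohd2 overlaps Tut7 at 135.2 TPM, Gm26642 overlaps Rnpep at 46.7 TPM and 1700019L13Rik overlaps Csrnp1 at 35.9 TPM. By the alignment-free program, some of these partners were higher: 1700019L13Rik had a mean of 7.05 TPM, against 2.99 TPM for Cx3cr1, Gm27177 had 43.1 TPM, against 9.66 TPM for Loxl2, and 9530082P21Rik had 6.27 TPM, against 1.04 TPM for Kremen2. The size of these ratios therefore depends on the program. Against the highest of all overlapping coding genes, 32 of the 226 were above.

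Among the well-known mouse antisense RNAs, 3 were members. Tug1, a nuclear RNA with roles in chromatin regulation, had 30.7 and 39.3 TPM, against 17.8 and 15.4 TPM for Morc2a, with which it overlaps head to head over 483 bases. Airn (chr17:12741311-12860136), which begins inside Igf2r and silences Igf2r on the paternal chromosome, had 31.6 and 28.8 TPM, against 34.9 and 30.7 TPM for Igf2r. Slc22a2 and Slc22a3, which Airn silences in the placenta, had 0 counts in both libraries. Kcnq1ot1 (chr7:143203458-143296549) had 7081 and 5704 expected counts, against 2 and 0 for Kcnq1, the potassium channel gene that holds it. Its imprinted neighbour Phlda2 had 0 counts, Cdkn1c, a cell cycle inhibitor gene, had 1.13 and 0.12 TPM, and Cd81, a tetraspanin gene, had 12.6 and 24.3 TPM. Gene totals do not separate the parental chromosomes.

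Of the other genes of that list that are antisense in all transcripts, Nespas had 19 and 12 counts, Dnm3os 6 and 12, Tsix 4.92 and 0 and Hotairm1 1 and 0. Dlx6os1, Emx2os, Foxo6os and Wt1os had 0 in both. Zeb2os, opposite the transcription factor gene Zeb2, had 58.0 and 82.1 TPM and is no member only because not all its transcripts carry the antisense class. Of 27 symbols on the list, 24 were matched and 11 were antisense in all transcripts. The antisense genes whose symbol is a coding gene's symbol with the ending os numbered 256, of which 116 had counts and 15 were members, led by Zmiz1os1 (26.9 and 28.8 TPM), Aknaos (22.3 and 23.7 TPM) and Rab10os (20.97 and 20.65 TPM). Kdm6bos had 6.32 and 4.77 TPM inside Kdm6b, the gene of a histone demethylase induced by lipopolysaccharide, against 42.0 and 64.2 TPM.

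A list of 155 genes of Toll-like receptor, NF-kB and interferon responses, chosen with earlier results of these data known, held 153 genes of the annotation. Of these, 19 were the partner of 22 antisense genes, 17 of which had counts and 6 of which were members (27.3%). Over all 2948 antisense genes, 1417 had counts and 7.90% were members. The partners of the 22 had a median of 56.2 TPM, against 0.353 TPM for partners of antisense genes that are no members. These sets are unlike and not separate: the 22 include the 6 members, and the rest of the 22 belong to both. Besides the genes opposite Tnfaip2 and Ikbke, the 6 members were Gm45479 inside Irf2, Gm47009 inside Irak3 and Gm26885 at Pim1. Gm45479 had 28.2 and 17.2 TPM, against 83.1 and 52.7 TPM for Irf2, an interferon regulatory factor gene. Gm47009 had 12.0 and 10.5 TPM, against 51.3 and 37.9 TPM for Irak3, which encodes an inhibitor of Toll-like receptor signalling. Gm26885 had 8.75 and 9.74 TPM, against 144 and 209.9 TPM for Pim1. In all 6 pairs the antisense gene was the lower in both libraries, as it was in 186 of all 226 pairs.

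The other 16 lay under the minimum. Gm43964, inside Irak2, a gene of interleukin-1 and Toll-like receptor signalling (232 and 234 TPM), had 16.1 and 12.3 TPM from only 20 and 16 counts. Il1bos, head to head with the interleukin gene Il1b (119.7 and 219.8 TPM), had 0.80 and 2.5 TPM. Gm13822, head to head with the antiviral gene Oasl1 (222 and 450.2 TPM), had 4.94 and 4.84 TPM from 9 counts each. Gm15564, tail to tail with the antiviral gene Parp9 (137 and 170.4 TPM), had 0 counts in both libraries. Il1bos and Il1b were both higher in replicate 2.

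An opposite coding start lay within 1000 bases of the start of 39 antisense genes (16.7%), and of 582 of the 2715 other antisense genes (21.4%). In 27 of the 39 the genes overlap at their starts, and in 12 the starts are separated and point apart. The coding genes at these starts had a median of 9.31 TPM, and 20 of the 39 antisense genes were above the coding gene. 2610020C07Rik, whose start lies 35 bases from that of Rsl1d1, had 17.7 and 22.4 TPM, against 8.57 and 10.04 TPM. Brip1os had 6.14 and 6.30 TPM, 177 bases from the DNA repair helicase gene Brip1 at 0.74 and 0.43 TPM. Gm41077 had 7.59 and 8.96 TPM, 211 bases from Nim1k at 0.45 and 0.54 TPM.

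At other shared starts the coding gene was the higher. Gt(ROSA)26Sor, the Rosa26 locus used for transgenes, had 11.0 and 11.7 TPM, and its start lies 32 bases from that of Setd5, which had 135.0 and 135.7 TPM. Gm26782 had 4.30 and 5.10 TPM, against 78.3 and 49.3 TPM for the telomerase-associated gene Tep1. 2610020C07Rik, Gm41077, Gt(ROSA)26Sor and Gm26782 were picked as examples after their values were seen.

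**Figure D3:**
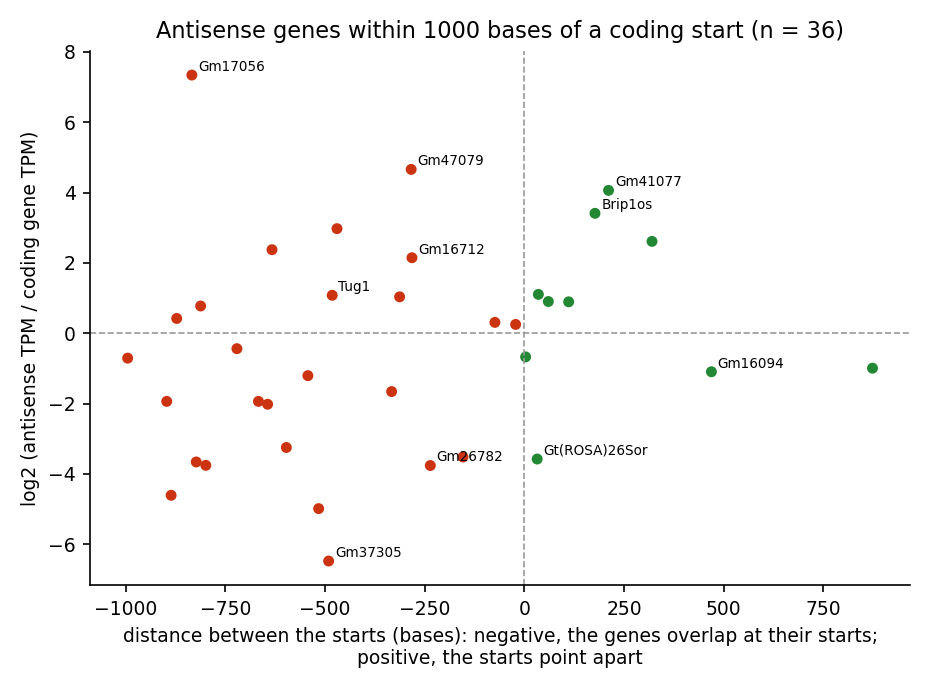
Ratio of antisense to coding TPM (vertical, log2) against the distance between the starts in bases (horizontal) for 36 antisense genes within 1000 bases of a coding start; red points overlap at their starts, green points are separated, and 3 genes whose coding neighbour is listed at 0 are not drawn. Points lie on both sides of the dashed line of equal level, with Gm17056 and Gm47079 high and Gm37305 low.

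After TMM scaling, each gene's level in replicate 2 was set over that in replicate 1, with no test because each number is a single library. A ratio of 2-fold or more was found for 17 members higher in replicate 2 (7.30%), where 3.33% of all 11600 genes with 20 counts in both libraries were that much higher. It was found for 4 members lower in replicate 2 (1.72%), where 2.37% of all genes were that much lower. By the alignment-free program 7 of 229 members were that much higher (3.06%), where 2.14% of all 20143 genes were, and 4 were that much lower (1.75%), where 1.32% of all genes were, so the members lay near the background there. The median log2 ratio by the alignment-based program was 0.24 over the members and 0.01 over all genes, and by the alignment-free program 0.11 over the members and 0.02 over all genes. By the alignment-based program 166 members had a positive ratio and 67 a negative one. The matching counts over all genes, and by the alignment-free program, were not made.

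Among members averaging 100 counts or more, the highest log2 ratios were those of 1700019L13Rik (88 and 221 counts in replicates 1 and 2, log2 ratio 1.46), Gm42435 (134 and 327 counts, 1.42), Gm27177 (1053 and 2517 counts, 1.39), Gm16144 (69 and 162 counts, 1.36) and Gm16094 (242 and 537 counts, 1.28). The lowest were those of AC132460.3 (268 and 98 counts, -1.32), Gm45606 (649 and 267 counts, -1.15), Gm15356 (314 and 132 counts, -1.12), Gm15987 (440 and 196 counts, -1.03) and Gm15478 (274 and 155 counts, -0.69). Several of their partners differed the same way, and Csrnp1, which overlaps 1700019L13Rik, had a ratio of 1.23. Gm42435 lies inside the cell cycle kinase gene Cdk6, whose ratio was 1.09, and Gm16144 inside the annexin gene Anxa2, whose ratio was 1.01. Gm15356 lies inside March1, a ubiquitin ligase gene, at -1.28, and Gm45606 overlaps the amino acid transporter gene Slc43a2 at -0.91. Gm16712 (log2 ratio 1.07) had 28.5 and 59.8 TPM, against 19.3 and 47.5 TPM for Ebi3, a subunit gene of interleukins 27 and 35, whose ratio was 1.32. Gm16712 also overlaps a second opposite coding gene, Yju2, whose start lies 282 bases from its own. Yju2 had 7.52 and 12.39 TPM and a ratio of 0.59. Gm16094 had its ratio of 1.28 beside Sp110, whose ratio was 0.17. Sp140, which begins past the end of Gm16094 on the same strand, had a ratio of 0.60.

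Both genes could be compared in 213 pairs, and their replicate ratios had a Pearson r of 0.684 and a Spearman rho of 0.628. By position, r was 0.738 in 143 pairs with the antisense gene inside, 0.556 in 38 tail-to-tail pairs and 0.378 in 28 head-to-head pairs. Of 16 pairs with a 2-fold difference of the antisense gene, the partner differed the same way in 16 and by 2-fold or more in 7. The smallest log2 ratios of these partners were 0.23 (Mid1), 0.28 (Ankrd11) and 0.34 (Camk2d). The share of same-way partners over all 213 pairs was not counted. Each pair shares its libraries, and where the counting ignored strand, it would also share reads, which was not tested.

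**Figure D4:**
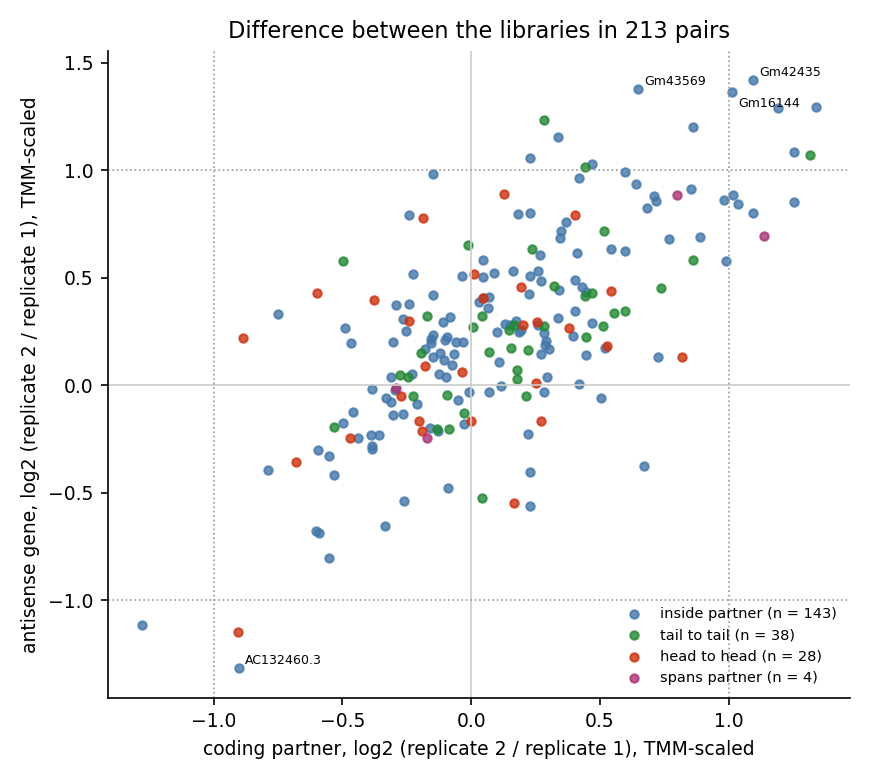
Log2 ratio of replicate 2 over replicate 1 after TMM scaling for the antisense gene (vertical) and its coding partner (horizontal) in 213 pairs, coloured by how the genes overlap; dotted lines mark 2-fold. The points run from AC132460.3 and Gm15356 at the lower left to Gm42435 at the upper right, with r = 0.684.

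The alignment-free program was the second measure of the same libraries. By it 651 antisense genes met the minimum, 222 of them among the 233, so 11 members did not meet it and 429 others did. Over the members its TPM was a median of 1.33 times the alignment-based value, near the 1.23 of protein-coding genes that meet the minimum, and rho between the programs was 0.734. It was at least 2-fold higher for 63 members and at least 2-fold lower for 5. Gm20234 had 183 and 299 TPM by the alignment-free program, against 21.5 and 42.2 TPM by the alignment-based program. Airn had 96.4 and 107 TPM by the alignment-free program, and its partner Igf2r, at a mean of 114 TPM, was again close to it. Of the 226 pairs, 33 had the antisense gene above its partner by the alignment-free program, against 36 by the alignment-based program. Among the 615 pairs of the 651 genes that met the minimum by the alignment-free program, 203 had the antisense gene above (33.0%).

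Gm26716 and Gm17139 had 0 counts by the alignment-free program in both libraries, against 45.2 and 40.7 counts and 41.2 and 25.9 counts by the alignment-based program. CR974462.3, Gm44709 and Gm26759 were the other 3 that were at least 2-fold lower. In 7 members the program's own posterior SD, as deposited, exceeded 10% of the count, up to 34.1% for Gm44876, and these include Gm17139, CR974462.3, Gm44709 and Gm26759. Wt1os, with 0 alignment-based counts, had 88.2 and 92.1 alignment-free counts, and 255 antisense genes with no alignment-based count had at least 20 alignment-free counts in both libraries. For these genes the presence of reads depends on the program.

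**Figure D5:**
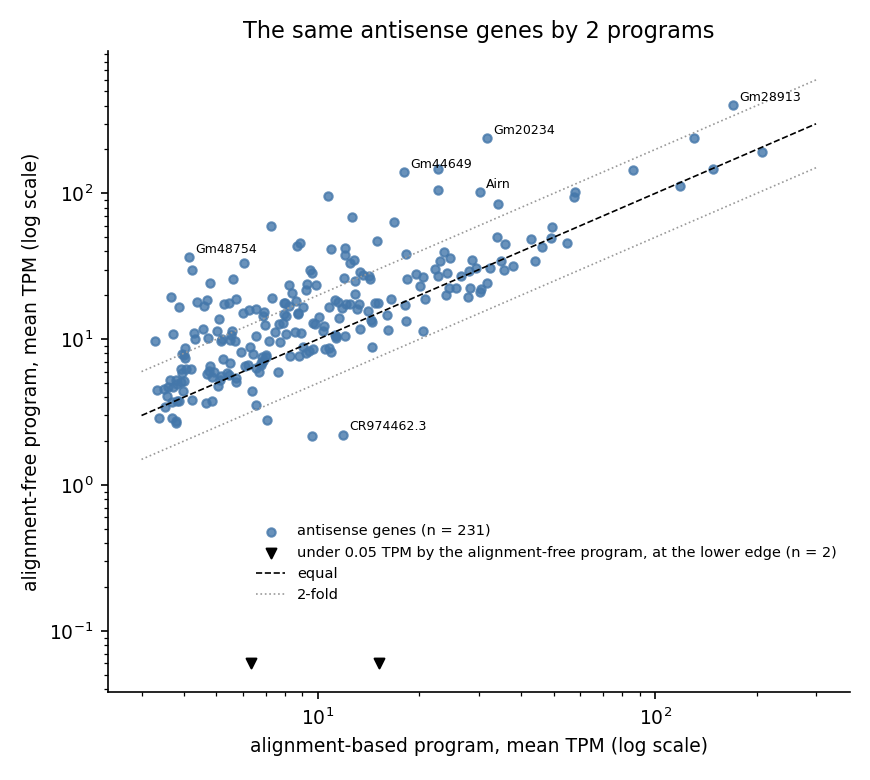
Mean TPM by the alignment-free program (vertical, log scale) against mean TPM by the alignment-based program (horizontal, log scale) for the 233 antisense genes; the dashed line marks equality, dotted lines 2-fold, and black triangles the 2 genes with 0 alignment-free counts. More points lie above the upper dotted line (63) than below the lower one (5, triangles included).

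A single annotated transcript was present in 152 of the 233, 104 had 3 or more exons in a transcript, 113 had a maximum of 2, and 16 had a single exon (6.87%, against 6.30% of other antisense genes). The median gene span was 5426 bases, from 554 in Gm16094 to 258600, against a median of 5702 bases in the other antisense genes. Effective length was under 300 bases in 25 members, where TPM per count is high: Gm28913 reached 161 and 179.6 TPM from 334 and 377 counts. Of 81 members with more than 1 transcript, 31 had a leading transcript over 90% of the TPM in both libraries. One of 2 annotated transcripts of Gm40578 held all its TPM, and the leading transcript of 5 for Gm27177 held 99.0% and 97.9%. The leading transcript of 8 for Tug1 held 22.3% and 27.0%, so its TPM was spread over several.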

How the data were processed

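Chromatin RNA of 1 group was measured in 2 libraries. The deposited expected counts and TPM per gene and transcript were made from transcriptome alignments on mm10 with GENCODE M21, per the submitters' description files, with columns as RSEM writes them, per the file headers. The authors' TPM was scaled over all entries, spike-ins and 26345 entries without an annotated gene included. The deposited posterior SD of the count and the effective length are scores of that program, per the file headers. The alignment-free deposited estimated counts and TPM per transcript have columns as kallisto writes them and were summed per gene. No source used here states program names, versions or strand setting.

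The members, lists and comparisons were chosen with earlier results of these data known. A partner was the protein-coding gene on the opposite strand with the longest overlap. Named genes were the 10 members of highest mean TPM, the 5 highest and 5 lowest replicate ratios among members averaging 100 counts or more, the 5 highest and 5 lowest ratios to the partner, members with a partner on the inflammatory list, members named os (the leading ones are given), the known antisense list partners listed at 0, and the 3 nearest on each side of 3 TPM. Other genes named, among them Gm16712, F630028O10Rik, Gm20234, Gm26716, Gm17139, Gm44876, the shared-start examples and the antisense genes under the minimum, were picked after their values were seen. Counts were rounded and scaled by TMM (edgeR 4.0.16), with DESeq2 1.42.0 size factors as an alternative. No test was made, since there is 1 group. Intervals and limits cover counting error only. In simulated libraries with counting noise alone, the replicate step scored 11868 genes. Among these it found all 158 with a simulated 4-fold change, plus 4 of the 11710 left as they were. Further changed genes were not among those scored, and smaller changes were not simulated.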

Additional observations from a re-analysis of the deposited data

How the results depend on the processing

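No paired analysis was possible because the 2 libraries form 1 group. Of 36 recomputed values, 22 stayed within 1.5 times the reported count or within the SD between the libraries, and the alternative with the partner taken as the highest overlapping coding gene was chosen after seeing the data. The alignment-free program gave 651 members, a share of 0.939% of counts, a summed level of 12296 TPM, 203 of 615 antisense genes above their partner and 11 members with a 2-fold difference between the libraries (7 of 229 higher in replicate 2, where 2.14% of all genes were, and 4 lower, where 1.32% were). A minimum of 1 TPM gave 358 members and a share of 0.520%, and a minimum of 10 TPM gave 85 members, 0.330%, 2713 TPM and 14 above the partner. Rescaling TPM over protein-coding and long noncoding genes gave a summed level of 9401 TPM over 343 members. Without a replicate, the share ranged from 0.452 to 0.526%, the summed level from 3385 to 4443 TPM, the number of members from 260 to 283 and those above the partner from 36 to 48. The larger sets follow from looser minimums by construction, and the cause of the difference between the programs was not tested. Depth limits most the members nearest 20 counts, such as Gm16172 with 22.1 and 31.1 counts.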
